A study of Mus musculus with 4 samples.

Results

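Accessible chromatin at Tbx21, Gata3, Rora, Eomes and Ahr, 5 genes for transcription factors that direct the fates of helper T cells and innate lymphocytes, was described in T regulatory (Treg) cells from lymph nodes (LNs). Every peak called in any library that touched one of the gene records or the 20 kb on either side was taken, and peaks that overlapped by at least 1 bp were joined. The 5 loci held 164 such regions of 272233 in the whole series, namely 132 at Rora, 14 at Gata3 and 6 each at Tbx21, Eomes and Ahr. The libraries were ATAC-seq libraries, in which a transposase inserts adapters into open DNA, made from 50000 sorted RFP+ Foxp3+ CD4+ Treg cells each. Both groups were naive, unstimulated C57BL/6 females aged 6 to 8 weeks that carried the same Foxp3-RFP reporter, which marks Treg cells by red fluorescence. There were 2 WT and 2 Il2ramut/mut libraries, and per the labels each genotype was represented by 2 mice. Il2ramut/mut mice bear a point mutation in CD25, the high affinity chain of the IL-2 receptor, that lowers its display at the cell surface and the response to IL-2. The mutation arose in a Ccr2-/- colony, and the line was made Ccr2+/+ by crossing to C57BL/6, so other variants of that colony could not be told apart from the mutation.

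WT replicate 1 had 112569 called peaks and WT replicate 2 had 126761, while the Il2ramut/mut replicates had 122776 and 142732. Of these, 58, 94, 71 and 98 fell at the 5 loci. Total read numbers are not in the lists, but the fold enrichment of each peak over background came from a whole number of reads at its summit, and the median peak rested on 8 to 10 reads. Peak strength was therefore read as a rank, the percentile of the peak's −log10 p within its own list. All 5 promoters of Treg marker genes tested (Foxp3, Il2ra, Ctla4, Ikzf2 and Tnfrsf18) and all 3 of T cell genes were called in all 4 libraries. None of the promoters of 4 B cell, 4 myeloid or dendritic and 2 NK cell genes was called in all 4, and of these only that of Cd14 was called at all, in 2 libraries. Of the genes known from innate lymphocytes, the promoter of Id2 was called in all 4 libraries, at a mean percentile of 98.7, and that of Il1rl1 in both Il2ramut/mut libraries alone, at 55.5 and 46.7. The part of such cells in the results was not tested. Of the CD8 T cell markers, the promoter of Cd8b1 was called in all 4 libraries and that of Cd8a in none.

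T-bet (Tbx21) and Eomes belong to the T-box family. T-bet directs Th1 cells, and Eomes is best known from cytotoxic CD8 T cells and NK cells. GATA3 directs Th2 cells, RORα acts in Th17 cells and is needed for type 2 innate lymphocytes, and AHR is a ligand-activated sensor of environmental and dietary compounds with roles in Th17 and gut lymphocytes. Treg cells can express some of these factors at low levels, and subsets of Treg cells are known that carry T-bet, GATA3 or RORα in defined tissues. Open chromatin at a gene marks DNA that factors can reach, and does not measure transcription.

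The DNA of the regions that the results below turn on is shown first, from the GRCm38 reference, which has the coordinates of mm10. Windows of 299 bases are centred on the summit of a region, and the window at the Ahr start site covers the 150 bases before it on the gene's own strand. Capitals mark the words searched for on both strands, which were AGGTGTGA for T-box factors, AGATAA for GATA factors, AGGTCA for ROR, TTGCGTG for AHR with ARNT, TTCNNNGAA for the STAT family, TGTTTAC for forkhead factors, TGTGGTT for the RUNX family and TGANTCA for AP-1.
Gata3, 1.1 kb before the start site, chr2:9879516-9879814 (+ strand): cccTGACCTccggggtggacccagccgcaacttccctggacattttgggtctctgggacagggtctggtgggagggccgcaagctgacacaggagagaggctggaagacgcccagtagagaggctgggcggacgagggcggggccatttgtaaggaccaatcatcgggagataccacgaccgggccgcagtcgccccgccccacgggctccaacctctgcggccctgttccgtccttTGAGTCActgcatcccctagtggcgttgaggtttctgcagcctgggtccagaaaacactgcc
Gata3, intron 4, chr2:9867485-9867783 (+ strand): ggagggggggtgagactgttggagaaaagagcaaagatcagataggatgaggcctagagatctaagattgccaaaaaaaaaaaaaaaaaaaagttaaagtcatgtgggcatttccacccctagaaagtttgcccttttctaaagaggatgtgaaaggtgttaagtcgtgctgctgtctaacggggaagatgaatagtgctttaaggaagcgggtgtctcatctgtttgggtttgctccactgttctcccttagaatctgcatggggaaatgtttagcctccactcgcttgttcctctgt
Rora, intron 1, highest mean percentile of the 5 loci, chr9:69034421-69034719 (+ strand): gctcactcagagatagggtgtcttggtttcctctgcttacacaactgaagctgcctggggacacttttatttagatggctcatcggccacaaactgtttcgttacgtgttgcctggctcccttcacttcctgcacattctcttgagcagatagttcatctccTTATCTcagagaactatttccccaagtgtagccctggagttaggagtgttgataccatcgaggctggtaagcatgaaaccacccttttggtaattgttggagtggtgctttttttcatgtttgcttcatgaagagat
Rora, intron 1, next highest at Rora outside a start site, chr9:69073341-69073639 (+ strand): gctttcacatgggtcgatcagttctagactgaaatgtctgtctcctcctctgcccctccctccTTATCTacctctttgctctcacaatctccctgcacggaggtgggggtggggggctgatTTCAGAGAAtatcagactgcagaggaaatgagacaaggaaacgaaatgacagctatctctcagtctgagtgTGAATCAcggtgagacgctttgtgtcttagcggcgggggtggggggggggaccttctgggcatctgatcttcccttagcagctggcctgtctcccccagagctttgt
Rora, intron 2, smallest p between genotypes, chr9:69298073-69298371 (+ strand): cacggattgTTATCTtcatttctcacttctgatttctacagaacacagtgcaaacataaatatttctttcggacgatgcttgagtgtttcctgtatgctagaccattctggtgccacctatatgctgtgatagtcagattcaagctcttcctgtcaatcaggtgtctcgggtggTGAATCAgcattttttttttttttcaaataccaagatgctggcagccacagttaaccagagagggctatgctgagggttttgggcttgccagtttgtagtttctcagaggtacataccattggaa
Tbx21, 12 kb before the start site, chr11:97127195-97127493 (+ strand): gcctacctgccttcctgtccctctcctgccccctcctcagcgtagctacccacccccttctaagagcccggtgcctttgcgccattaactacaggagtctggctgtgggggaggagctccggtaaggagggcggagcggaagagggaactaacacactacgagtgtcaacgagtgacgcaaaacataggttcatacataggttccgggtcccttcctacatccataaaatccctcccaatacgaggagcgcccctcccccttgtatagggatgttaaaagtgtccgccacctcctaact
Eomes, 11.4 kb after the start site, chr9:118489614-118489912 (+ strand): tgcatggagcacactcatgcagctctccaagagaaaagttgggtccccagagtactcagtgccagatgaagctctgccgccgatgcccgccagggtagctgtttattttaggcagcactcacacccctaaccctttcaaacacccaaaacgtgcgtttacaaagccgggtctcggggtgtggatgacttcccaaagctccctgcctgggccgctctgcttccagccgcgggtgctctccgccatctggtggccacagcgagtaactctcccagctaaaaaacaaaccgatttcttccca
Ahr, before the start site, chr12:35535039-35535188 (- strand): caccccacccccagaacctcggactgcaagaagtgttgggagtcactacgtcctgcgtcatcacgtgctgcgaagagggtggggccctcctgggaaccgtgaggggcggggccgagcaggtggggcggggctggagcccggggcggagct

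The window before Gata3 held the ROR word at its left end and an AP-1 word in its right part. The first Rora window held a GATA word, the next one GATA, STAT and AP-1 words, and that in intron 2 GATA and AP-1 words. The other 4 windows shown held none of the words.

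Regions called in all 4 libraries were the most repeatable part of the data, and 31 of the 164 (18.9%) met this standard, beside 14.1% of all regions. They numbered 7 of 14 at Gata3, 2 of 6 at Tbx21, at Eomes and at Ahr, and 18 of 132 at Rora. A further 12 regions were called in 3 libraries, 28 in 2 and 93 in a single library (56.7%, beside 61.3% of all regions). The single-library regions were weak, with a median of 7 reads at the summit and never more than 12, whereas the 31 regions had a median of 18. At Gata3 there were 9.59 regions called in all 4 libraries per 100 kb, above the density of 93.4% of protein-coding genes measured over the same kind of window. The density was 4.17 at Eomes, 3.49 at Tbx21, 2.60 at Ahr and 2.32 at Rora, which were above 70.0%, 63.7%, 56.5% and 53.0% of genes.

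Gata3 (chr2:9857078-9890034, minus strand) carried a series of strong regions on either side of its start site at position 9878600. The region over the start site itself, chr2:9877936-9879190, lay at percentile 87.4 in WT replicate 1, 89.9 in WT replicate 2, 91.6 in Il2ramut/mut replicate 1 and 92.1 in Il2ramut/mut replicate 2, the order used for all values by library. A region whose summit was 1.1 kb before the start, chr2:9879205-9879945, ranked higher still in every library, at 91.9 and 95.8 in WT and 96.1 and 96.7 in Il2ramut/mut, with fold enrichments of 15.7, 32.8, 28.7 and 30.1. Inside intron 2, chr2:9875514-9876911 was at percentiles 92.2, 96.1, 95.1 and 94.4, in the same order. All 3 regions stood at percentile 87.4 or above in every list, and the ranks of the genotypes overlapped in intron 2 but not in the other two.

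Further into the gene, intron 3 held chr2:9871020-9872188, at percentiles 84.2, 90.5, 90.7 and 91.8, and chr2:9872654-9873233, at 85.1, 76.7, 81.9 and 71.4. In intron 4, chr2:9867181-9867873 was the single Gata3 region ranked higher in both WT libraries, with fold enrichments of 8.61 and 13.1 in WT against 6.73 and 6.80 in Il2ramut/mut. The seventh region lay 10.9 kb before the start, chr2:9888970-9889843, at 70.7, 88.9, 84.8 and 87.7. It ends 159 bp short of the start of a further Gata3 transcript that the full annotation holds and the basic one leaves out. The gene record of 9230102O04Rik, a protein-coding gene on the same strand, has its 5′ end inside the region, at position 9889540. WT replicate 1 was the lowest library at both this region and the one before the promoter.

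Rora (chr9:68653786-69388246, plus strand) has 2 annotated start sites 635.9 kb apart, and called peaks lay over the second alone. No peak was called over the first, at position 68653786, in any library. The nearest region lay 708 bp away, and the nearest called in all 4 libraries 19.7 kb away. Over the second start, at position 69289682, from which the short transcript Rora-202 begins, chr9:69289098-69291461 lay at percentiles 95.7 and 94.2 in WT and 95.1 and 95.9 in Il2ramut/mut. The 4 libraries stood within 2 percentiles of each other there, and their fold enrichments were 24.8, 26.8, 24.7 and 25.8.

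By its mean percentile over the libraries, the highest region of the 5 loci was intronic and not at a start site, although in Il2ramut/mut replicate 2 the region 1.1 kb before the Gata3 start ranked above it (96.7 against 96.1). It lay in intron 1, chr9:69033937-69035127, 255.1 kb before the second start, at percentiles 95.9, 97.9, 97.4 and 96.1 and fold enrichments of 25.3, 48.5, 36.3 and 26.7. A second intron 1 region, chr9:69073022-69073947, stood at 93.0, 92.6, 92.5 and 95.3. WT replicate 2 and Il2ramut/mut replicate 1 were high at the first and Il2ramut/mut replicate 2 at the second, so neither separated the genotypes. In all, 12 of the 18 Rora regions called in all 4 libraries had their summit in intron 1 and 5 in intron 2 of the long transcript. The last, chr9:69397602-69398357, covers the start site of Ice2, a subunit gene of the little elongation complex, and belongs to Rora only by the 20 kb window.

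Most Rora regions were of another kind. From 20 kb before the gene to 100 kb into it, 75 regions were called in 120 kb, or 6.25 per 10 kb, against 0.871 per 10 kb over the rest of the locus and 1.25 at the 4 other loci. Of these 75, 57 (76%) were called in a single library, beside 61.3% of all regions, and 2 in all 4, and the median was 8 reads at the summit. The stretch went on beyond the window, with 133 regions in the 200 kb before it, or 6.65 per 10 kb. Within the 120 kb, 15 and 23 regions were called in WT and 26 and 35 in Il2ramut/mut, or 13.3, 18.1, 21.2 and 24.5 per 100000 peaks of each list. In the 200 kb before the window these rates were 33.8, 36.3, 47.2 and 37.8, from 38, 46, 58 and 54 regions. Without this stretch, which was set apart after its values were seen, 29 of 89 member regions (32.6%) were called in all 4 libraries.

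**Figure D1:**
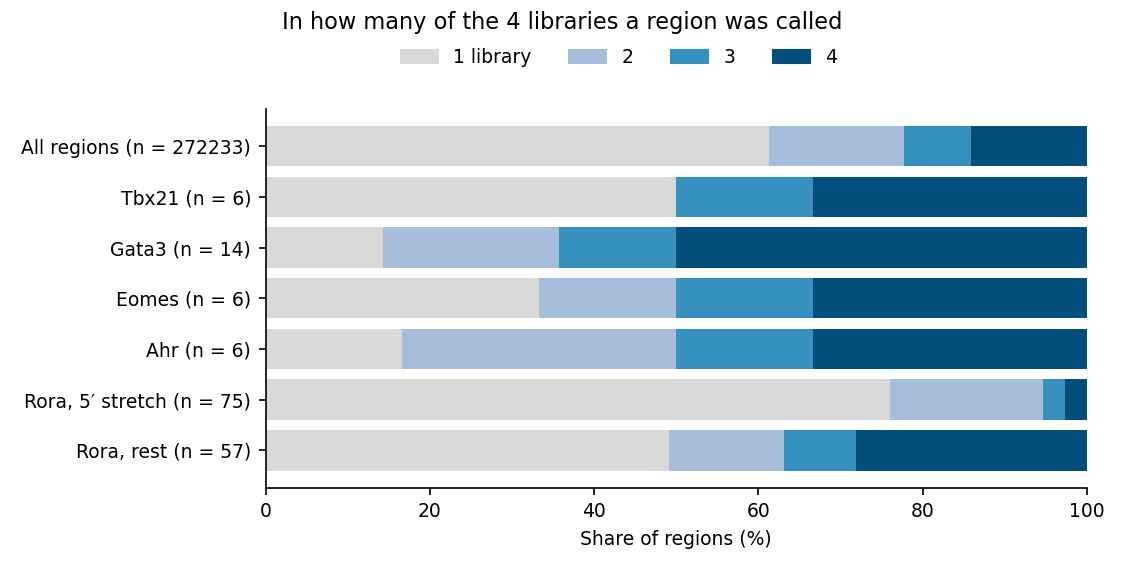
Share of regions (%) called in 1, 2, 3 or 4 of the 4 libraries, for all regions of the series, for 4 loci and for 2 stretches of the Rora locus, with the number of regions in brackets. The 5′ stretch of Rora, from 20 kb before the gene to 100 kb into it, is made up of single-library regions to 76%, and 7 of the 14 Gata3 regions were called in all 4 libraries.

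Tbx21 (chr11:97098071-97115331, minus strand) had no region at its start site that the libraries shared. The start at position 97115331 was covered in Il2ramut/mut replicate 2 alone, by chr11:97115223-97115422 at percentile 46.7 with 8 reads at the summit. Just before it, chr11:97115823-97116222 was called in WT replicate 2 at 79.9 and in Il2ramut/mut replicates 1 and 2 at 76.4 and 62.3, but not in WT replicate 1. The strongest region of the locus lay 12 kb before the start, chr11:97126682-97127546, at percentiles 87.4 and 93.0 in WT and 87.8 and 93.0 in Il2ramut/mut. Its fold enrichments of 10.6, 23.2, 11.2 and 17.0 spread more within a genotype than between them. An intron 2 region, chr11:97101783-97102133, was also called in all 4 libraries, at 62.4, 43.8, 39.1 and 83.3, with 8 to 14 reads.

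Eomes (chr9:118478212-118486132, plus strand) had no called peak over either of its 2 start sites in any library. The nearest region, chr9:118478774-118479345 in exon 1, was called in WT replicate 2 at percentile 71.3 and in Il2ramut/mut replicate 1 at 19.8. A region 11.4 kb after the start and 3.6 kb past the end of the gene, chr9:118489333-118490109, was called in all 4 libraries, at percentiles 75.3, 85.7, 83.0 and 83.3. The remaining region called in all 4, chr9:118505982-118506580 at 85.1, 83.8, 86.2 and 86.3, lies over the start of Golga4, a Golgi protein gene.

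Ahr (chr12:35497974-35535038, minus strand) had 1 strong region, over its start site at position 35535038. This region, chr12:35533989-35535387, lay at percentiles 89.6 and 88.9 in WT and 90.5 and 94.5 in Il2ramut/mut, with fold enrichments of 12.7, 15.2, 14.4 and 20.9. It also covers the start of Gm48236, a non-coding RNA gene on the other strand, and ATAC-seq does not tell the pair apart. The other region called in all 4 libraries, chr12:35554052-35554716, lay 19.4 kb before the start at 26.6, 74.5, 80.6 and 76.5, and WT replicate 1 was far below the rest with 7 reads at the summit.

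The promoters fell into an order that the libraries shared only in part. With a promoter taken as the best-ranked region within 1 kb of a start site, 52.4% of 21911 protein-coding genes had one called in all 4 libraries, and 35.8% had none in any. Rora had a mean percentile of 95.2, Gata3 95.1 and Ahr 90.9, above 56.9%, 55.9% and 32.0% of the 11473 genes with a promoter called in all 4. The libraries ranged from 94.2 to 95.9 at Rora, from 91.9 to 96.7 at Gata3 and from 88.9 to 94.5 at Ahr, so the ranges of neighbours overlapped. Within each library, however, Ahr was below both others, and Gata3 was above Rora in every library but WT replicate 1. Tbx21 followed with a promoter called in 3 libraries and Eomes with one in 2. The genes with the most similar promoter percentiles over the 4 libraries, by Euclidean distance, were Stx7, Tpcn2 and Wac for Rora (distances of 0.208 to 0.424), Zfp160, Gpt and Fastkd1 for Gata3 (0.698 to 0.970), and Otub2, Atp11a and Bhlhb9 for Ahr (0.666 to 1.17).

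Of 11 other genes tied to helper lineages, 10 had promoters called in all 4 libraries. They included Stat4, which acts in Th1 cells, with a mean percentile of 87.6, Stat6, which acts in Th2 cells, with 93.4, Runx3 with 98.3, Maf with 95.6 and Bcl6, the regulator of follicular helper cells, with 90.3. The promoter of Ahrr, the repressor of AHR, was called in no library. Arnt, the partner of AHR, was at 97.1.

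**Figure D2:**
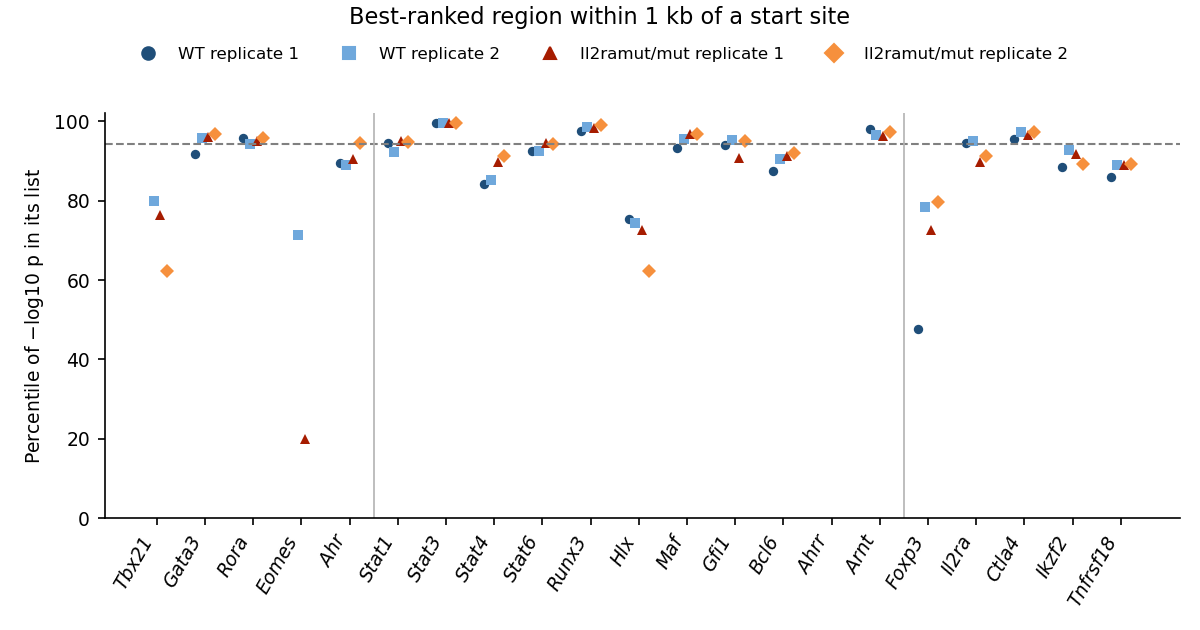
Percentile of −log10 p of the best-ranked region within 1 kb of a start site, for the 5 genes (left), 11 other helper lineage genes (middle) and 5 Treg genes (right). Each symbol is 1 library, a missing symbol is a promoter without a called peak, and the dashed line is the median of all genes with a promoter called in all 4 libraries (94.3). Gata3 and Rora lie near the line in all 4 libraries, Tbx21 below it in 3, and Eomes has 2 symbols only.

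The question between genotypes was whether reduced IL-2 signals went with other accessibility at these genes. No region at the 5 loci passed limma (adjusted p of at most 0.05, Benjamini-Hochberg over the 38426 regions called in all 4 libraries, of which 0% passed), and the smallest adjusted p was 0.582. Without adjustment 3 of the 31 regions had p under 0.05, or 9.68%, beside 8.55% of all regions. The 95% intervals of the differences reached 0.59 to either side of the difference on the log2 scale in the median region. An exact permutation test of 2 against 2 libraries cannot give less than 0.333.

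The 3 regions with the smallest p were in Rora and Gata3. At chr9:69297822-69298386 in Rora intron 2, 8.5 kb after the second start, the fold enrichment was 4.56 and 6.06 in WT and 9.42 and 9.72 in Il2ramut/mut. Both Il2ramut/mut libraries stood above both WT libraries, and the difference in log2 fold enrichment was 0.94 (95% CI 0.37 to 1.52, limma adjusted p = 0.582). At chr9:68969241-68969799 in Rora intron 1 the fold enrichments were 5.57 and 6.57 in WT and 11.2 and 8.75 in Il2ramut/mut, a difference of 0.78 (0.16 to 1.41, limma adjusted p = 0.582). The intron 4 region of Gata3 went the other way, with a difference of −0.58 (−1.15 to −0.01, limma adjusted p = 0.584). These 3 were the only regions of the 31 outside the range that holds the middle 90% of all regions, from −0.53 to 0.52.

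At the start sites the differences in log2 fold enrichment were 0.31 (−0.16 to 0.78) at Gata3, 0.00 (−0.44 to 0.44) at the second Rora start and 0.38 (−0.20 to 0.96) at Ahr. The region 1.1 kb before Gata3 differed by 0.40 (−0.10 to 0.91), and that 12 kb before Tbx21 by −0.11 (−0.82 to 0.61). All of these intervals contained 0. Over the 31 regions the median difference was 0.09, with 20 above 0, beside a median of 0.00 and 50.6% above 0 over all regions tested.

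**Figure D3:**
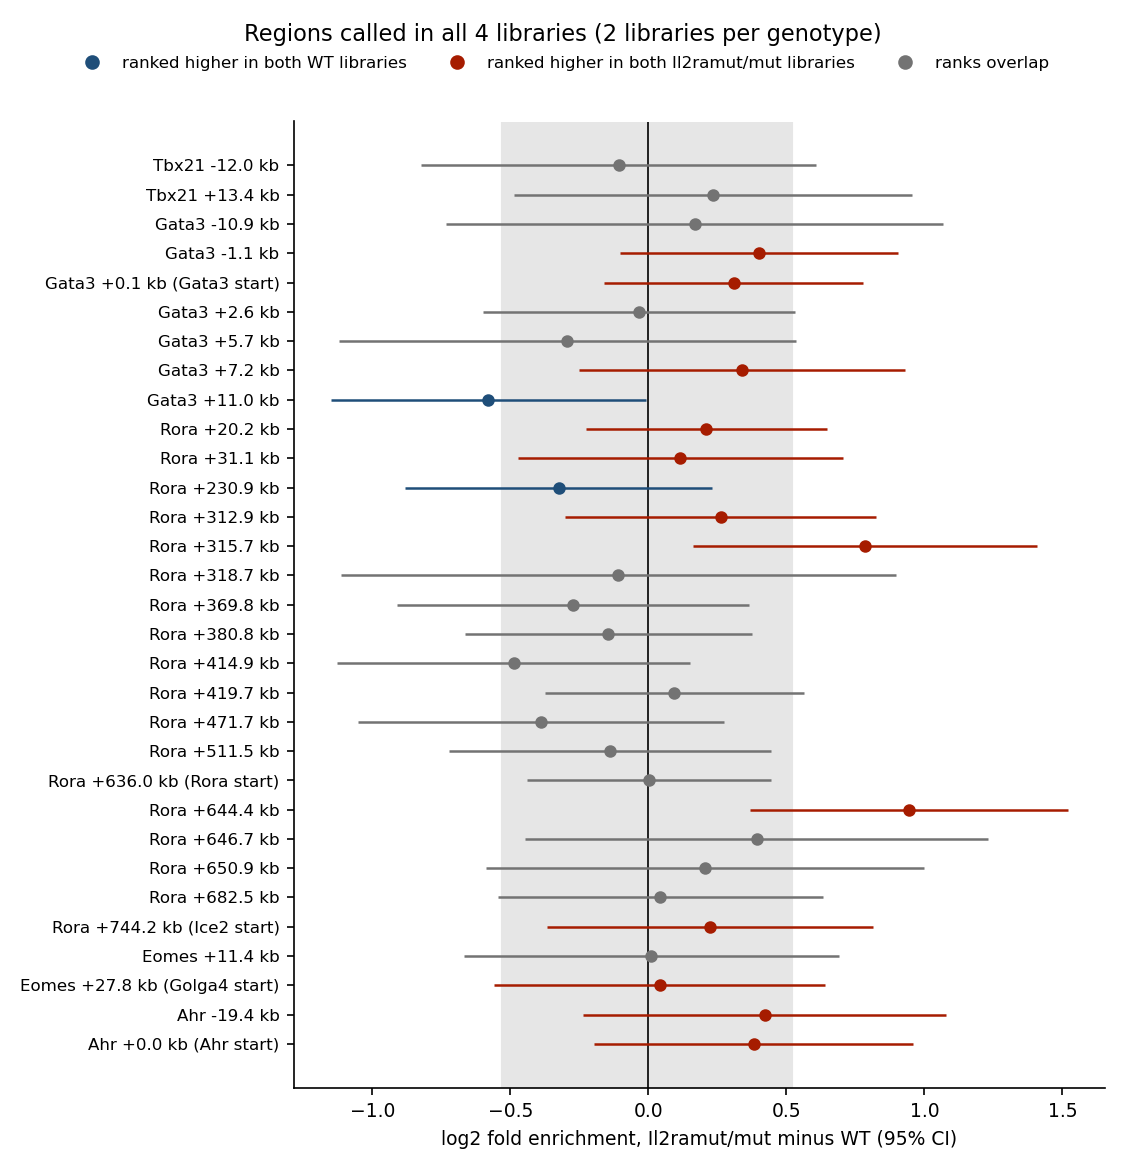
Difference in log2 fold enrichment, Il2ramut/mut minus WT, for the 31 regions called in all 4 libraries (2 libraries per genotype). Bars are 95% confidence intervals from limma. Regions are named by distance from the start site of the longest transcript, which is the 5′-most one except at Eomes. The grey band holds the middle 90% of all 38426 regions, from −0.53 to 0.52. Red points rank higher in both Il2ramut/mut libraries, blue points in both WT libraries, and 3 points lie outside the band.

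Ranks that did not overlap between the genotypes were mostly higher in Il2ramut/mut. Of the 31 regions, 12 (38.7%) ranked higher in both Il2ramut/mut libraries, beside 26.2% of all regions, and 2 (6.45%) ranked higher in both WT libraries, beside 12.6%. The 12 were 6 of 18 at Rora, 3 of 7 at Gata3, both at Ahr and 1 of 2 at Eomes. The 6 Rora regions include the one over the Ice2 start, and the Eomes region is the one over Golga4. Without the 5′ stretch of Rora, 10 of 29 regions ranked higher in both Il2ramut/mut libraries. The 2 ranked higher in both WT libraries were in Gata3 intron 4 and Rora intron 1. The list of Il2ramut/mut replicate 2 was the longest, and this library ranked highest at 16 of the 31 regions (51.6%) and at 41.3% of all, while WT replicate 1, with the shortest list, ranked lowest at 15 (48.4%) and at 37.9% of all. The part of list length in the ranks was not tested. Without WT replicate 1, 15 of 36 regions ranked above the remaining WT library in both Il2ramut/mut libraries and 10 below it. These counts were 19 and 3 of 32 without WT replicate 2, 23 and 7 of 35 without Il2ramut/mut replicate 1, and 15 and 7 of 33 without Il2ramut/mut replicate 2. The shares over all regions with a library left out are not given, so these counts describe the 5 loci only. The other helper lineage genes had 22 of 61 regions (36.1%) higher in Il2ramut/mut and 10 (16.4%) higher in WT.

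Among regions whose ranks did not overlap, the largest differences in mean percentile were at weak regions. The region 19.4 kb before Ahr had a mean percentile of 50.5 in WT and 78.6 in Il2ramut/mut. However, WT replicate 1 was at 26.6, and WT replicate 2, at 74.5, was close to Il2ramut/mut replicate 2, at 76.5. The closest libraries were further apart at the Rora intron 2 region with the smallest p, at 71.3 in WT replicate 2 and 85.6 in Il2ramut/mut replicate 1. In the other direction, chr9:68884364-68885017 in Rora intron 1 had means of 79.1 in WT and 72.0 in Il2ramut/mut.

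Reproducible open chromatin regions (OCRs) were called per genotype by the irreproducible discovery rate (IDR, at most 0.05), which keeps peaks that rank high and alike in both libraries. At the 5 loci 24 OCRs were found in WT and 23 in Il2ramut/mut, and 18 regions were OCRs in both. There were 6 OCRs of WT only (25%), all at Rora, beside 16.7% of all WT OCRs, and 5 of Il2ramut/mut only (21.7%), 3 at Rora and 1 each at Gata3 and Ahr, beside 15.6%. Of these 11 regions 10 were called in all 4 libraries and 1 in 3, so the other genotype had a called peak at each. The ranks of the genotypes did not overlap at 1 of the 6 and 3 of the 5. How often either holds among all OCRs of 1 genotype in the series was not reported. The Gata3 region 10.9 kb before the start had an IDR of 0.000418 in Il2ramut/mut and 0.345 in WT, where its replicates lay at percentiles 70.7 and 88.9. At chr9:69023251-69023801 in Rora the IDR was 0.00555 in WT and 0.173 in Il2ramut/mut, whose replicates lay at 66.2 and 83.3. In both cases the genotype without the OCR had a called peak in both of its replicates. The other OCRs of WT only lay 230.9, 318.7, 414.9, 421.2 and 650.9 kb after the first Rora start, and those of Il2ramut/mut only at Rora 31.1, 644.4 and 646.7 kb after it. With 1 library left out, there were 3 OCRs of WT only without WT replicate 1 and 8 of Il2ramut/mut only without Il2ramut/mut replicate 1. A lone library has no replicate for the IDR, and how its peaks were selected is not given here, so these counts are not like the main ones.

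Regions called in both libraries of 1 genotype and in none of the other were at Rora alone. There were 5 for WT (3.05%), beside 2.7% of all regions, and 5 for Il2ramut/mut (3.05%), beside 3.56%. Of these 10 regions 7 lay in the 5′ stretch of weak peaks, with 6 to 11 reads at the summits, and none was a reproducible OCR. Those of WT lay 13.4 and 3.9 kb before the first Rora start and 90.8, 418.5 and 660.2 kb after it, and those of Il2ramut/mut 10.2, 23.1, 25.3, 52.4 and 744.7 kb after it. The highest of them, chr9:69072070-69072511 in intron 1, was at percentiles 62.4 and 66.3 in WT.

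The words for the factors themselves were counted up to 150 bases on either side of the summits of the 31 regions. GATA words were in 5 (16.1%), all at Rora, beside 11.4% of 38281 regions called in all 4 libraries on the numbered and sex chromosomes. ROR words were in 5 (16.1%), 2 at Gata3 and 3 at Rora, beside 15.6%, and T-box and AHR words were in none, beside 1.41% and 1.15%. AP-1 words were in 7 (22.6%), 5 at Rora and 2 at Gata3, beside 10.7%. STAT, forkhead and RUNX words were in 2 each (6.45%), beside 8.81%, 4.0% and 10.2%. These counts describe letters in a window, since no binding was measured.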

How the data were processed

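ATAC-seq was done on LN Treg cells of 2 WT and 2 Il2ramut/mut mice, 1 list of called peaks per library. Per the paper and the submitters' processing notes, the authors trimmed reads (Trim Galore 0.3.7), mapped them to mm10 (BWA 0.7.13), used SAMtools 0.1.19 and Picard 1.92, removed duplicated and mitochondrial reads, kept concordant pairs, shifted read 1 and called narrow peaks per library with MACS2 2.1.0. The deposited columns used are the fold enrichment at the summit (a ratio over background), its −log10 p and its −log10 q. The score column is 10 times the −log10 q, as deposited. With 1 read added to summit and background, and a background fixed in each library, 100% of the fold values came from whole reads (within 0.02 of a read), but the lists hold peaks only, so no count test was run. Lists ended at a −log10 q of 1.30 to 1.70, depending on the library, and weaker signal was not listed.

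Peaks were joined at 1 bp of overlap, and gene records and start sites came from the GENCODE vM21 basic annotation of GRCm38. Regions called in all 4 libraries were tested by limma (3.58.1, R 4.3.3, with a mean trend) on log2 fold enrichment after quantile normalisation, with no covariate. IDR was written in Python (3.11.15, numpy 2.4.6, pandas 2.3.3, scipy 1.17.1), ranked by −log10 p, at 0.05, and figures were drawn with matplotlib (3.10.9). The limma, joining and IDR steps were tested on simulated data. The members, gene lists and rules were chosen with earlier results of these data known. The regions named are those over start sites, the 2 best-ranked others per gene, those called in 1 genotype only and OCRs of 1 genotype. Also named are the 3 with the smallest p and, among ranks without overlap, the largest difference in mean percentile each way. Other regions were added to complete a locus. One gene of the list of other helper lineage genes is not reported here. Alternatives covered the window, joining, ranking, normalisation, scale, IDR and each library left out.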

Additional observations from a re-analysis of the deposited data

How the results depend on the processing

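The 6 counts at the 5 loci (regions called in all 4 libraries, regions past limma, regions ranked higher in both libraries of WT or of Il2ramut/mut, and OCRs of WT only or of Il2ramut/mut only) stayed within 1.5 times the reported value under the other windows, the stricter peak threshold, the other rankings and IDR threshold where these applied, and without the 5′ stretch of Rora, an alternative added after seeing the data. The 50% joining was run for the regions called in all 4 libraries and both rank counts only, with the same outcome. Without the IDR step every peak called in both libraries was kept, and OCRs of 1 genotype only were 11 for WT and 11 for Il2ramut/mut. These were mostly other regions. For each genotype, 5 were called in no library of the other genotype and 6 in 1 of them. The 10 reported OCRs of 1 genotype that were called in all 4 libraries were not among them. With each library left out in turn, regions called in all remaining libraries were 32 to 36. Of these, 3 to 10 ranked higher in WT and 15 to 23 higher in Il2ramut/mut. For these counts fewer libraries have to meet the condition. The matching shares over all regions are not given, so the counts describe the 5 loci only. OCRs of WT only were 3 to 7 and OCRs of Il2ramut/mut only 5 to 8. For the OCR counts the cause was not tested. Without WT replicate 1 the limma fit assumes that the lone WT library varies like the others. No member region passed limma under any alternative, although 318 of 38426 regions did with median centring and 1 of 31479 with peaks of −log10 q of at least 3. Signs of the differences were followed at 15 regions only, those over start sites, best-ranked at their gene or with the smallest p. Of their 149 differences under the alternatives, 133 kept their sign and 16 did not, 15 of these on leaving out a library. The genotypes share replicate numbers, but no label says that these pair the samples. Deviations of libraries with the same number correlated at 0.0109 over all regions, and whether such libraries shared a day or batch was not tested. With the replicate block, 0 regions were called and the smallest adjusted p of a member was 0.656. It was 0.184 with median centring, 0.204 over regions called in at least 2 libraries and 0.263 with stricter peaks, and 0.483 to 0.60 with a library left out. Depth limits the weak regions: with 6 to 12 reads at a summit, a missing peak in another library cannot be told from a missed one.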
